A study of Mus musculus with 18 samples.

Results

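A set of 7 genes of the Fc receptor system were followed in mouse pancreas: the adaptors Fcer1g and Tyrobp, the activating IgG receptors Fcgr1, Fcgr3 and Fcgr4, the inhibitory IgG receptor Fcgr2b, and the inhibitory collagen receptor Lair1. They were taken by gene symbol and are 7 of the 25651 genes in the count table. Lair1 was picked for its rise in KPC pancreas, so its values are described without a test. The other 6 were named without a measured value, in a set put together with results of these mice known. Fcer1g, Tyrobp, Fcgr2b, Fcgr3 and Lair1 are 5 of the 6920 genes that passed the filter on low counts, while Fcgr1 and Fcgr4 lay under it.

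Polyadenylated RNA from snap-frozen pancreas of 18 mice aged 20 weeks was counted with unique molecular identifiers (UMIs), which mark each captured molecule. All mice were of a mixed 129Sv x C57BL/6 background. There were 5 KPC ASC KO mice, 7 KPC mice and 6 wild-type (WT) mice, with 1 library per mouse. KPC is the usual name of a family of genetically engineered mouse models of pancreatic cancer. ASC is the adaptor protein of inflammasomes, encoded by Pycard. The labels give the genotype only by these names, with no allele, Cre driver, sex or histology, and they do not say whether ASC was lost in all cells or in some. The series title names innate immune regulators in pancreatic cancer as its subject.

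Fc receptors let leukocytes respond to antibody bound to a target. The activating receptors Fcgr1, Fcgr3 and Fcgr4 have no signalling motif of their own and pair with the Fcer1g chain, whose immunoreceptor tyrosine-based activation motif (ITAM) recruits the kinase Syk. Tyrobp, also called DAP12, carries the same kind of motif for receptors such as Trem2. Fcgr2b and Lair1 carry inhibitory motifs that recruit phosphatases, Inpp5d to Fcgr2b and Ptpn6 to Lair1. Macrophages and monocytes use most of these genes, natural killer cells use Fcgr3, mast cells use Fcer1g with the IgE receptor, neutrophils use Fcgr4, and B cells use Fcgr2b as their only IgG receptor.

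The bases before the transcription starts are shown because several of these genes moved together. They are RefSeq windows of 100 bases before the annotated start on GRCm38.p6, read 5′ to 3′ on the strand of the gene. RefSeq entries matched 6 of the 7 genes; Tyrobp has none in the table used. Capitals mark the word CTTCCTC, which is GAGGAAG on the other strand, a purine-rich word of the kind bound by myeloid ETS factors such as PU.1. It was searched on both strands and was chosen after these sequences had been read.
Fcgr1 (chr3:96293970-96294069, minus strand): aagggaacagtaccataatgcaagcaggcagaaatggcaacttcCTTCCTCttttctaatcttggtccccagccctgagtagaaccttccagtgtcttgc
Fcgr3 (chr1:171059404-171059503, minus strand): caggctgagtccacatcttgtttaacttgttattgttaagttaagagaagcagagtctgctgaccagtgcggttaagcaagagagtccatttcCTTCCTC
Fcgr4 (chr1:171018826-171018925, plus strand): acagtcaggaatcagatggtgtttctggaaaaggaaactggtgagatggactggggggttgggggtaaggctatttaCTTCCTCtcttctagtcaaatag
Lair1 (chr7:4063205-4063304, minus strand): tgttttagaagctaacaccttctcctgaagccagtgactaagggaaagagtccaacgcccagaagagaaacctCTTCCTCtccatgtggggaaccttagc
Fcer1g (chr1:171234350-171234449, minus strand): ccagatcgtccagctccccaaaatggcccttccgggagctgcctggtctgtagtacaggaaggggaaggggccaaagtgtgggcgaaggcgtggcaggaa
The word stood in the windows of 4 of the 6 genes, those of Fcgr1, Fcgr3, Fcgr4 and Lair1. Of all 32851 RefSeq promoter windows of the same length, 4.72% held it. Counted by gene, 1481 of 27025 genes held it in any of their windows. Its first base lay 56 bases before the start of Fcgr1, 7 before the start of Fcgr3 shown here, 23 before that of Fcgr4 and 27 before that of Lair1. Another RefSeq window of Fcgr3, not shown, held it 16 bases before its start. Both windows of Fcgr3 lie inside the annotated gene. The windows of Fcer1g and Fcgr2b did not hold these letters. The window of Fcgr2b, not shown, lies inside the annotated gene, with 56 of its 100 bases in an exon. The bases after its start were not found in a transcript of the GENCODE annotation, so nothing is read from the lack of the word there. The matches are a description of the letters; no binding was measured here.

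Fcgr2b, Fcgr4, Fcgr3 and Fcer1g lie in this order on chromosome 1 (GRCm38; Fcgr2b from 170958617 to 170976547, Fcgr4 from 171018920 to 171029761, Fcgr3 from 171051174 to 171064935, and Fcer1g from 171229572 to 171234365). Fcgr1 is on chromosome 3 (96282909 to 96293969), and Tyrobp (30413760 to 30417585) and Lair1 (4003402 to 4063204) are on chromosome 7. Each of the 7 is annotated as a protein-coding gene. Fcgr2b and Fcgr3 encode closely similar extracellular parts, and how reads matching both were counted is not given in the sources used here, so the split of counts between them is uncertain. The gene Gm38204 overlaps the start of Fcgr2b on the opposite strand, and whether counting used strand is not given either.

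Library totals were 374432 to 647947 counts in KPC ASC KO mice, 452472 to 1626977 in KPC mice and 294077 to 416879 in WT mice. Pycard, the targeted gene, ranged from 5.56 to 34.2 CPM (counts scaled to a common library size) in KPC ASC KO pancreas, from 35.1 to 99.5 CPM in KPC pancreas and from 45.4 to 65.5 CPM in WT pancreas, so the lowest KPC mouse lay next to the highest KPC ASC KO mouse. Summed acinar markers, which identify the exocrine pancreas, were 231041 to 391614 CPM in KPC ASC KO, 32877 to 289185 CPM in KPC and 332999 to 419626 CPM in WT mice. Because acinar RNA takes a different share of each library, the scaling matters, and values below are CPM after scaling by trimmed mean of M values (TMM) unless stated otherwise. The marker sums are CPM of all counts. At these depths several of the 7 genes rested on a few molecules: Fcgr2b reached 10 counts in 2 of 5 KPC ASC KO, 7 of 7 KPC and 2 of 6 WT libraries, and Fcgr3 and Lair1 did so in 0 WT libraries. These genes passed the low-count filter through the libraries in which they were high. Each library is 1 mouse, so the p-values refer to the spread between mice.

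In KPC against WT pancreas the adaptors and most IgG receptors were higher. Outside Lair1, 5 of the 6 genes were called higher at an adjusted p under 0.05: Fcer1g, Tyrobp, Fcgr2b and Fcgr3 in the fit of the 6920 filtered genes, of which 14.8% were called higher, and Fcgr1 in the fit of all 25651 genes without a filter, of which 6.1% were called higher. Fcgr4 did not pass. The genes were chosen with results of these mice known, so these counts describe them and do not stand as independent evidence. The median log2 difference was 0.06 for the 6920 filtered genes and 0.60 in the fit without a filter, which gave the values of Fcgr1 and Fcgr4.

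**Figure D1:**
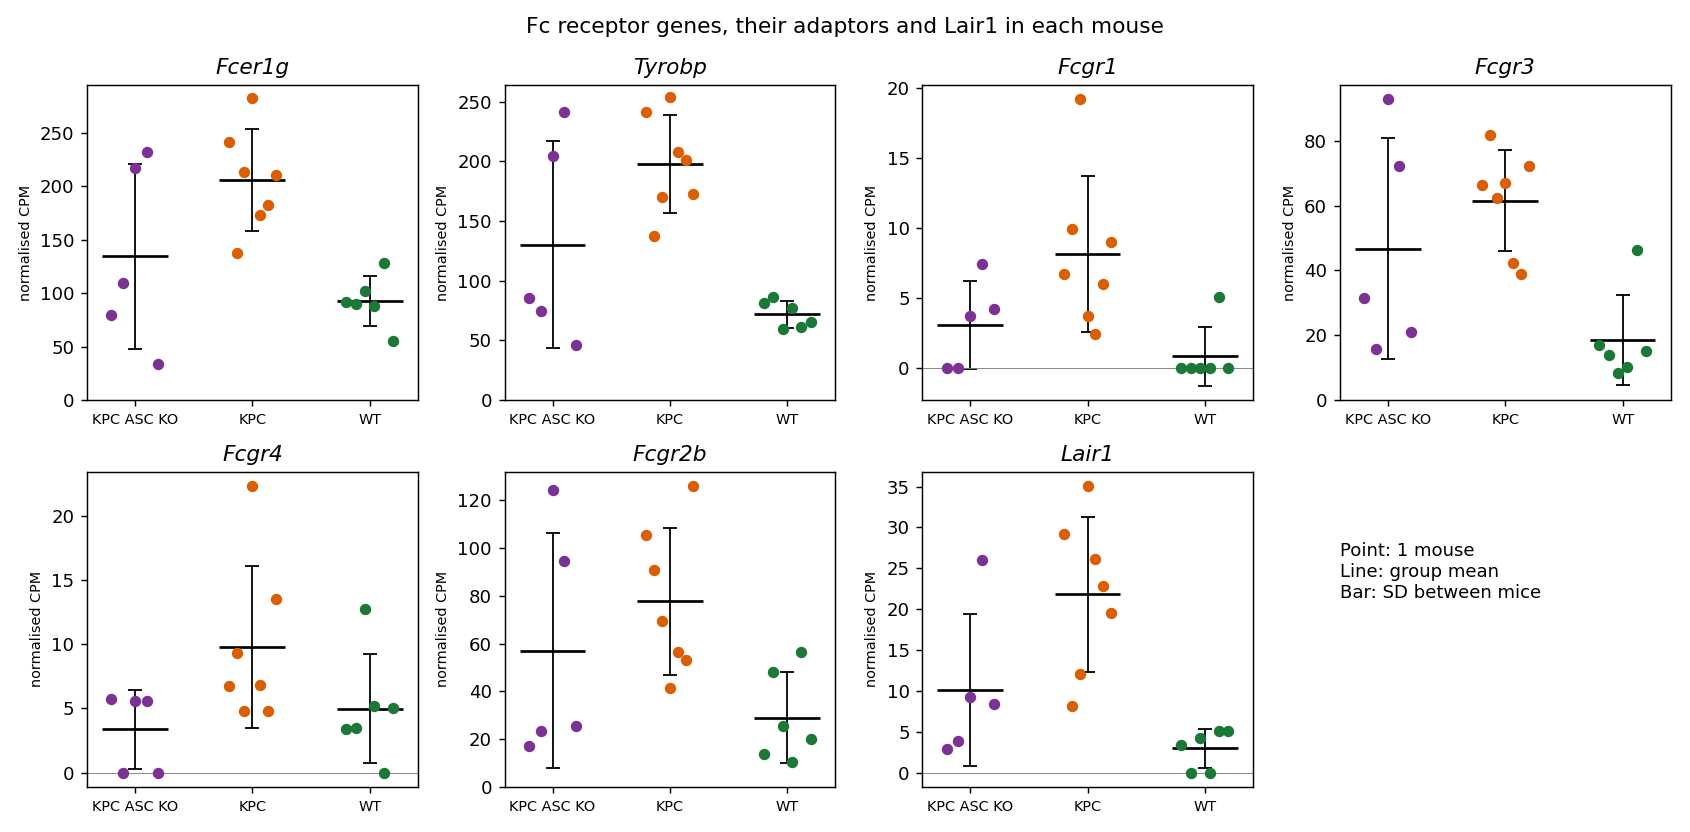
TMM-normalised CPM of the 7 genes in each mouse, one panel per gene, with KPC ASC KO (n = 5), KPC (n = 7) and WT (n = 6) from left to right; points are mice, and the bar and whiskers are the mean and SD. Every KPC mouse lies above every WT mouse for Fcer1g, Tyrobp and Lair1, and the KPC ASC KO points fall into a high pair and a low group of 3 for Fcer1g, Tyrobp, Fcgr2b and Fcgr3.

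Fcer1g, the ITAM chain of the activating Fc receptors, ran from 138 to 282 CPM in KPC mice, with a median of 210.1, against 55.5 to 128 CPM in WT mice, with a median of 90.8. Every KPC mouse was above every WT mouse. Between KPC and WT, 3.77% of the 6920 genes stood higher without overlap. The means were 206 ± 47.3 CPM in KPC and 92.5 ± 23.5 CPM in WT (SD, n = 7 and 6), a log2 difference of 1.15 (SE 0.31), which edgeR's quasi-likelihood test with Benjamini-Hochberg adjustment called at an adjusted p of 0.00892. The call was lost without the KPC mice 40, 89, 145 and 154, in which B cell markers were highest, where the log2 difference was 1.02 and the adjusted p 0.103.

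Tyrobp, the adaptor for Trem and other activating receptors, ran from 137 to 253 CPM in KPC mice, with a median of 201, against 59.4 to 86.2 CPM in WT mice, with a median of 71.5. Here too the groups did not overlap. The log2 difference was 1.45 (SE 0.29, 95% interval 0.85 to 2.05) with an adjusted p of 0.00115 by edgeR's quasi-likelihood test. WT mice varied little in Tyrobp, with an SD of 11.3 CPM around a mean of 72.0 CPM, and KPC mice averaged 198 ± 41.1 CPM.

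Fcgr3, the low-affinity activating receptor, ran from 38.9 to 81.8 CPM in KPC mice, with a median of 66.3, against 8.48 to 46.1 CPM in WT mice, with a median of 14.5. The overlap came from WT mouse 1237 alone, at 46.1 CPM, above the KPC mice 145 at 42.2 and 154 at 38.9 CPM. The log2 difference was 1.76 (SE 0.41), with an adjusted p of 0.00317 by edgeR's quasi-likelihood test.

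Fcgr1, the high-affinity IgG receptor, had at least 1 count in every KPC mouse, where it ran from 2.48 to 19.2 CPM with a median of 6.74. In WT mice a single molecule was counted, in mouse 1237, which makes 5.13 CPM there and 0 in the other 5. Over the groups these were 73 counts in KPC against 1 count in WT. The rate ratio from those counts was 9.92, with an exact 95% interval of 1.73 to 397 that covers counting error only. In the fit without a filter the log2 difference was 3.23 (SE 1.03), with an adjusted p of 0.0232 by edgeR's quasi-likelihood test. The call was lost without any one of the WT mice 69, 1197, 1202, 1213 or 1238, with adjusted p-values of 0.0509 to 0.0693. Without mouse 1237, which held the only WT molecule, the fitted difference was 5.61, and limma-voom gave 1.45, so its size is poorly fixed.

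Fcgr4, the activating receptor of neutrophils and monocytes, ran from 4.79 to 22.3 CPM in KPC mice, with a median of 6.83, against 0 to 12.7 CPM in WT mice, with a median of 4.25. The groups overlapped, and KPC mouse 89 was the highest of all at 22.3 CPM. The log2 difference of 1.13 had a 95% interval of -0.12 to 2.39 and an adjusted p of 0.289 by edgeR's quasi-likelihood test without a filter. Neutrophil markers were also highest in KPC mouse 89, and their part in this level was not tested.

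Fcgr2b, the inhibitory IgG receptor, ran from 41.4 to 126 CPM in KPC mice, with a median of 69.6, against 10.3 to 56.4 CPM in WT mice, with a median of 22.8. The groups overlapped, since WT mice 1197 and 1237 lay at 48.3 and 56.4 CPM and the KPC mice 89 and 154 at 41.4 and 53.3 CPM. The log2 difference was 1.40 (SE 0.48), with an adjusted p of 0.0354 by edgeR's quasi-likelihood test. This call was lost with limma-voom at an adjusted p of 0.099 and without a count filter at 0.0796. It was also lost without any one of the WT mice 69, 1202, 1213 or 1238 or the KPC mice 40 or 210, with adjusted p-values of 0.0562 to 0.0877, and without the KPC mice 40, 89, 145 and 154 together, at 0.0575.

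Lair1, an inhibitory receptor for collagens, ran from 8.08 to 35.1 CPM in KPC mice, with a median of 22.8, against 0 to 5.13 CPM in WT mice, with a median of 3.82. In raw molecules these were 216 counts over the KPC mice and 4 over the WT mice, and no WT library held more than 1. The fitted log2 difference was 2.89 (SE 0.67), and 2.12 with limma-voom. It is the value that chose this gene, and nothing is read from it.

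Loss of ASC in the KPC background was addressed by KPC ASC KO against KPC. None of the 6 genes other than Lair1 was called in this comparison, in which 9.42% of the 6920 genes were called in either direction and 2.69% were called lower. Without a filter, as used for Fcgr1 and Fcgr4, 2.97% of 25651 genes were called. The fitted log2 differences of the 7 genes were all below 0, from -0.29 to -1.38. The median was -0.05 for the 6920 filtered genes. In the fit without a filter, which gave the values of Fcgr1 and Fcgr4, it was -0.41. The KPC values stand in both comparisons, so these differences and those against WT are not independent.

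**Figure D2:**
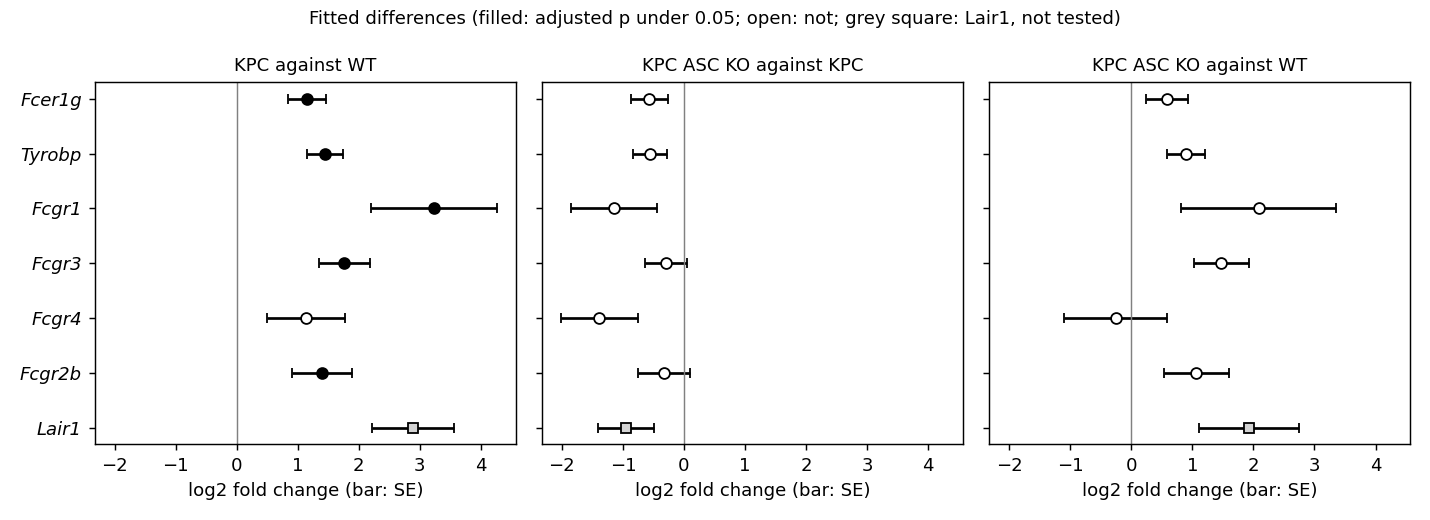
Log2 fold changes of the 7 genes in 3 panels, for KPC set against WT (left), KPC ASC KO set against KPC (middle) and KPC ASC KO set against WT (right), with bars of 1 SE from edgeR; filled points had an adjusted p under 0.05, open points did not, and the grey square is Lair1, which was not tested. Filled points stand in the panel of KPC against WT alone, for Fcer1g, Tyrobp, Fcgr1, Fcgr3 and Fcgr2b, and all 7 values lie below 0 in KPC ASC KO against KPC.

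Fcer1g was at 79.8, 109, 217, 232 and 33.8 CPM in the KPC ASC KO mice 318, 335, 377, 384 and 388, against 138 to 282 CPM in KPC mice. Mice 377 and 384 lay inside the KPC range and the other 3 below it. The log2 difference was -0.57 with a 95% interval of -1.20 to 0.07, and the adjusted p was 0.246 by edgeR's quasi-likelihood test.

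Tyrobp was at 85.5, 74.2, 204, 241 and 46.4 CPM in the KPC ASC KO mice in the same order, against 137 to 253 CPM in KPC mice. The same 2 mice lay in the KPC range, and mice 318 and 335 lay in the WT range of 59.4 to 86.2 CPM. The log2 difference was -0.55 with a 95% interval of -1.13 to 0.03 and an adjusted p of 0.21 by edgeR's quasi-likelihood test. Without KPC ASC KO mouse 384 it was -0.88, with an adjusted p of 0.0421.

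Fcgr3 was at 31.3, 15.6, 92.8, 72.3 and 21.1 CPM in the KPC ASC KO mice, against 38.9 to 81.8 CPM in KPC mice. Mouse 377 was above every KPC mouse, and mice 318, 335 and 388 were below every KPC mouse. The log2 difference of -0.29 (95% interval -0.99 to 0.42) had an adjusted p of 0.629 by edgeR's quasi-likelihood test.

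Fcgr2b was at 17.1, 23.4, 124, 94.6 and 25.3 CPM in the KPC ASC KO mice, against 41.4 to 126 CPM in KPC mice. It showed the same split, with mice 377 and 384 in the KPC range and the other 3 below it. The log2 difference of -0.33 (95% interval -1.23 to 0.57) had an adjusted p of 0.67 by edgeR's quasi-likelihood test.

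Fcgr1 was at 0, 0, 3.71, 7.42 and 4.22 CPM in the KPC ASC KO mice, from 7 molecules in all, against 2.48 to 19.2 CPM in KPC mice. The groups overlapped, and the log2 difference was -1.14 (SE 0.70) with an adjusted p of 0.451 by edgeR's quasi-likelihood test without a filter. Without mouse 384 it was -1.83, and without the KPC mice 40, 89, 145 and 154 it was -1.74. Fcgr4 was at 5.70, 0, 5.57, 5.56 and 0 CPM in the KPC ASC KO mice, from 8 molecules, against 4.79 to 22.3 CPM in KPC mice. Its log2 difference of -1.38 had a 95% interval of -2.62 to -0.15 and an adjusted p of 0.261 by edgeR's quasi-likelihood test without a filter.

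Lair1 was at 2.85, 3.91, 9.28, 26.0 and 8.44 CPM in the KPC ASC KO mice, against 8.08 to 35.1 CPM in KPC mice. Only mouse 384 was above the KPC median of 22.8 CPM, and mice 318 and 335 were below every KPC mouse and inside the WT range. The fitted log2 difference was -0.95 (SE 0.46), and -1.75 without mouse 384. Since the KPC mice on which Lair1 was chosen are on one side of it, no test is given.

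This comparison depended on the scaling. Scaling by total counts moved the median of all genes to -1.05 in KPC ASC KO against KPC and to 1.30 in KPC against WT. Under it, Fcer1g at -1.38, Tyrobp at -1.38, Fcgr1 at -1.91, Fcgr3 at -1.15 and Fcgr4 at -2.29 were called lower in KPC ASC KO than in KPC, while Fcgr2b at -1.11 was not (adjusted p from edgeR 0.00615 to 0.0603). Most genes were called there, 4853 of the 6920 filtered genes in either direction, so nothing is read from these calls. Relative to the median of the filtered genes these log2 differences were -0.32 for Fcer1g, -0.32 for Tyrobp, -0.85 for Fcgr1, -0.10 for Fcgr3, -1.23 for Fcgr4 and -0.05 for Fcgr2b. Fcgr1 and Fcgr4 came from fits without a filter, so for them the median is that of another set of genes. Scaling by the counts outside the acinar markers moved the median of the filtered genes to -0.67 and called Fcer1g, Tyrobp and Fcgr4. Their log2 differences relative to that median were -0.39, -0.38 and -1.23 in that order. Under this scaling 2888 of the 6920 filtered genes were called in either direction. Fcgr4 was also called higher in KPC than in WT under both, at log2 differences of 2.22 and 1.74, which are 0.92 above the median of the filtered genes in each. There 5519 and 4079 of the 6920 filtered genes were called in either direction. The direction of all 7 genes was the same under each scaling in both comparisons.

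In KPC ASC KO against WT, no gene of the 6920 was called by edgeR, which makes 0% called, while 691 had an unadjusted p under 0.05; DESeq2 called 8 genes and limma-voom called 0. Without a filter, as used for Fcgr1 and Fcgr4, edgeR called 12 of 25651 genes, or 0.0468%, neither gene among them. Tyrobp had the log2 difference 0.90 (95% interval 0.24 to 1.55, adjusted p 0.337 by edgeR) and Fcgr3 1.48 (0.54 to 2.41, adjusted p 0.276 by edgeR). The other differences were 0.58 for Fcer1g, 1.07 for Fcgr2b, 2.09 for Fcgr1, -0.25 for Fcgr4 and 1.94 for Lair1. Fcgr1 was at 4.47 without WT mouse 1237, 1.40 without KPC ASC KO mouse 384 and 0.48 with limma-voom, and Lair1 was at 1.12 without KPC ASC KO mouse 384 and 1.23 with limma-voom. Mice 377 and 384 exceeded every WT mouse in Fcer1g, Tyrobp, Fcgr2b and Fcgr3. KPC ASC KO mouse 388 lay below every WT mouse in Fcer1g and Tyrobp.

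The spread between mice thus differed by group in the adaptors. For Fcer1g the SD was 64.5% of the mean in KPC ASC KO mice, 23.0% in KPC mice and 25.4% in WT mice. For Tyrobp it was 66.4% in KPC ASC KO, 20.8% in KPC and 15.7% in WT mice. No test of these spreads was made.

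The balance of inhibitory and activating IgG receptors was described by the share of Fcgr2b in the counts of Fcgr1, Fcgr2b, Fcgr3 and Fcgr4. It averaged 49.8% ± 10.8 in KPC ASC KO, 48.7% ± 9.13 in KPC and 51.8% ± 12.4 in WT mice (SD, n = 5, 7 and 6). The ranges, 31.6% to 60.0% in KPC ASC KO, 30.8% to 57.1% in KPC and 40.0% to 73.7% in WT mice, overlapped throughout, and the means differed by less than the SD. The WT shares rest on 5 to 21 counts per mouse.

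**Figure D3:**
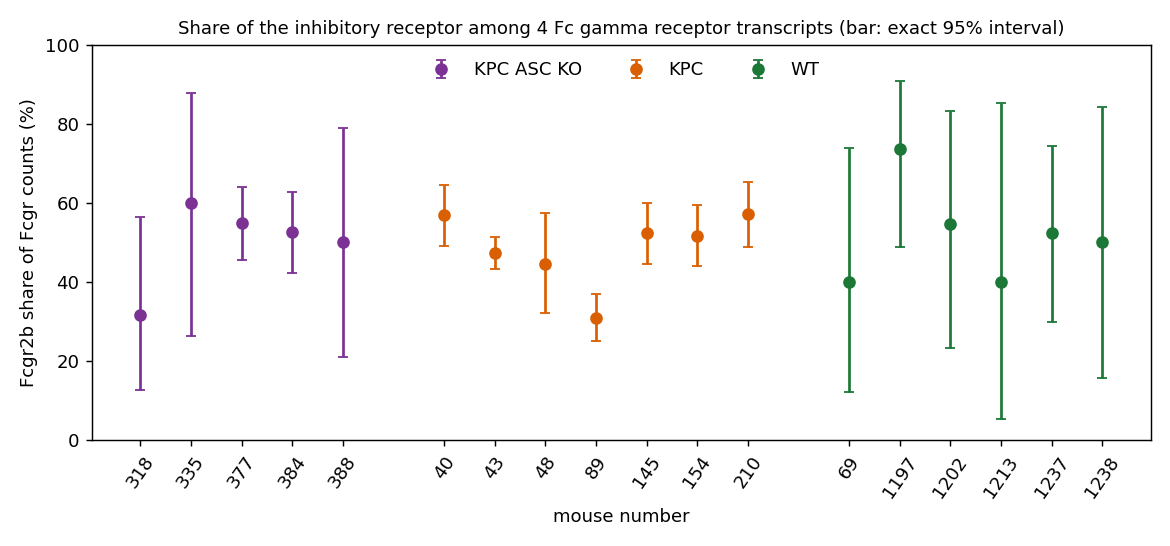
Share of Fcgr2b in the summed Fcgr1, Fcgr2b, Fcgr3 and Fcgr4 counts of each mouse, in percent, by group from KPC ASC KO to WT; whiskers are exact 95% binomial intervals and cover counting error only. The groups overlap, and KPC mouse 89, at 30.8%, lies below the intervals of the other 6 KPC mice.

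Within the KPC group the share was lowest in mouse 89, at 30.8% from 78 of 253 counts (exact 95% binomial interval 25.2% to 36.9%). It was 47.3% in mouse 43 (292 of 617 counts, 43.3% to 51.4%), 57.0% in mouse 40 (49.0% to 64.6%) and 57.1% in mouse 210 (48.7% to 65.3%). The intervals of those 3 mice lie above that of mouse 89. Mouse 89 combined the lowest Fcgr2b level of the KPC mice, 41.4 CPM, with the highest Fcgr4, Fcer1g and Tyrobp levels.

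Summed macrophage markers, such as Csf1r, Lyz2 and Adgre1, averaged highest in KPC mice, as did these genes. Lyz2 held most of the counts of this sum in each group. Over the KPC mice it had 15082 counts, against 1253 for Csf1r, the next highest of these markers. The sum was 408 to 2323 CPM in KPC ASC KO mice, 1456 to 4136 CPM in KPC mice and 421 to 697 CPM in WT mice. Within KPC, Pearson r of log2 TMM CPM with the log2 sum was 0.49 for Tyrobp, 0.59 for Lair1 and 0.27 for Fcgr4. It was -0.04 for Fcer1g, -0.44 for Fcgr2b, -0.43 for Fcgr3 and -0.93 for Fcgr1 (n = 7). The sum was not TMM-scaled, and the TMM factors of the KPC mice ran from 0.967 to 2.28. These r values mix both scales, so nothing is read from them. On CPM of all counts, KPC mouse 48 had the lowest sum, 1456 CPM. It also had the lowest Fcer1g, 197 CPM, and Fcgr3, 57.5 CPM, of the KPC mice, while Fcgr1 was lowest in mouse 145, at 4.21 CPM. Among the KPC ASC KO mice the macrophage sum was 2204 CPM in mouse 377 and 2323 CPM in mouse 384. It was 468, 408 and 462 CPM in mice 318, 335 and 388, the same split as for Fcer1g and Tyrobp. Summed acinar markers were lowest among the KPC ASC KO mice in the same pair, at 274600 and 231041 CPM. Summed red blood cell markers were highest there, at 6196 CPM in mouse 377 and 4637 CPM in mouse 384, against 893 to 2014 CPM in the other 3. After TMM scaling 4 of 4 tested red blood cell markers were called lower in KPC than in WT, beside 15.1% of all tested genes. Their sum, which was not TMM-scaled, averaged 2117 ± 979 CPM in KPC and 2425 ± 1743 CPM in WT mice (SD). The part of both marker sets in the levels of the receptors was not tested. Of the 14 macrophage markers 9 were tested and 5 rose in KPC against WT, beside 14.8% of all tested genes higher, with a median log2 difference of 1.26. Ms4a7 and Cd163 averaged lower in KPC mice, at 22.1 and 6.46 CPM, against 31.9 and 8.66 CPM in WT mice. In bulk tissue, more cells of a type and more RNA per cell cannot be told apart.

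Set per 100 CPM of the summed macrophage markers, Tyrobp was 9.58 ± 2.05 in KPC ASC KO, 9.80 ± 1.14 in KPC and 8.68 ± 2.25 in WT mice (SD, n = 5, 7 and 6). Because Lyz2 made up most of that sum, this scale is close to a ratio to Lyz2 and not to a broad set of macrophage markers. Fcer1g was 10.2 ± 4.15 in KPC ASC KO, 10.3 ± 2.38 in KPC and 10.9 ± 2.31 in WT mice on the same scale. For both adaptors the means of the groups lay closer together than 1 SD. Fcgr2b averaged 3.80 in KPC ASC KO, 4.02 in KPC and 3.46 in WT mice, and Fcgr3 averaged 3.29 in KPC ASC KO, 3.22 in KPC and 2.12 in WT mice. Lair1 was 0.745 ± 0.428 in KPC ASC KO, 1.04 ± 0.344 in KPC and 0.338 ± 0.269 in WT mice. With the mean macrophage marker level as a covariate in the fit, none of these genes was called in KPC against WT, and the log2 differences were -0.02 for Fcer1g, 0.36 for Tyrobp, -0.11 for Fcgr2b, 0.61 for Fcgr3, 2.67 for Fcgr1, -0.16 for Fcgr4 and 1.39 for Lair1. This covariate was added after the data had been seen, and 11 genes in all were called under it.

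**Figure D4:**
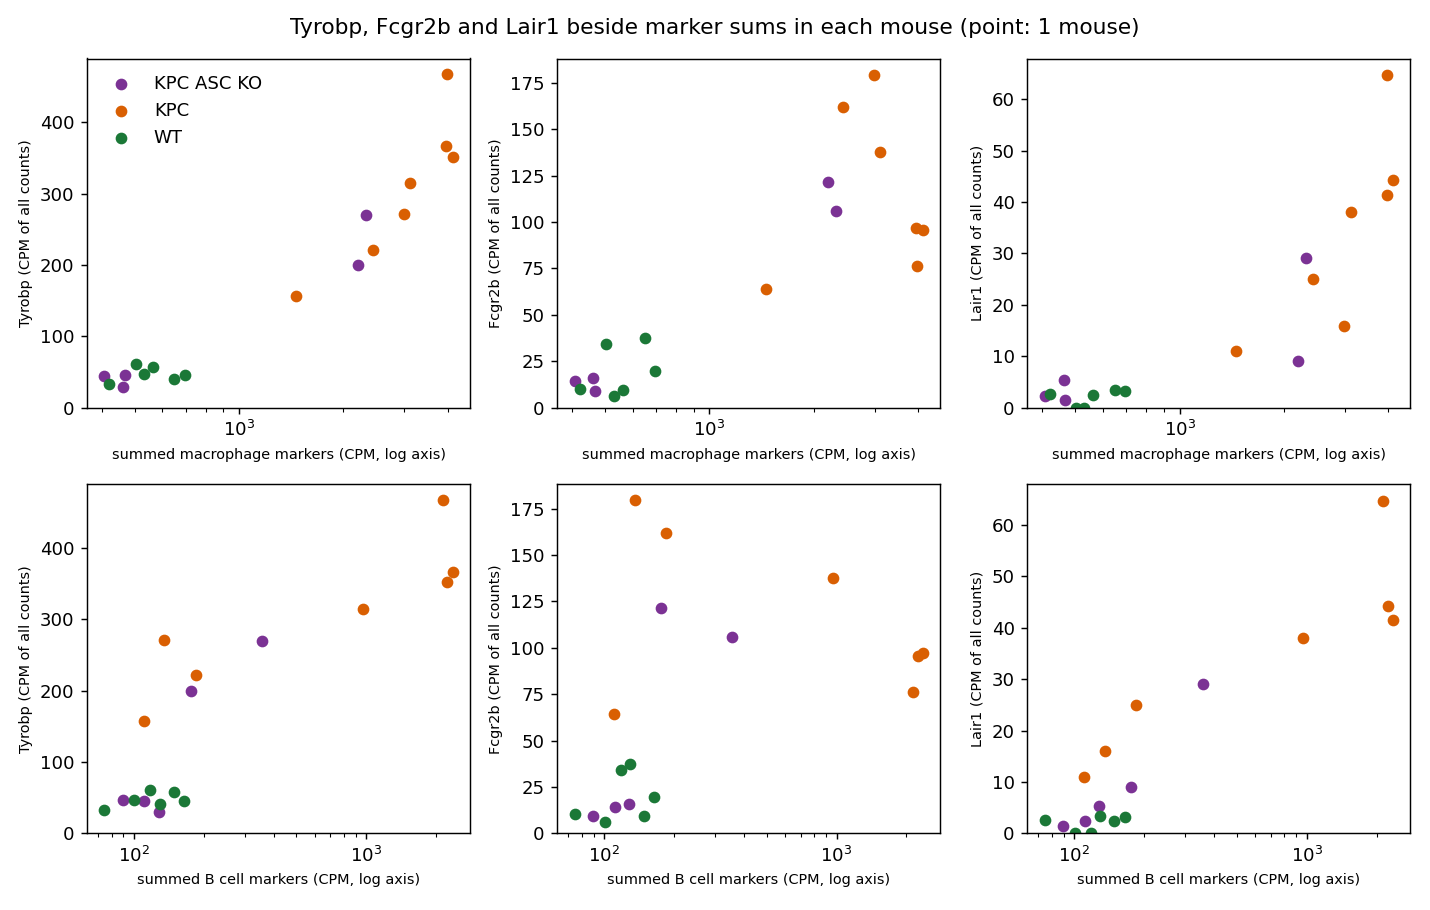
CPM of all counts of Tyrobp, Fcgr2b and Lair1 in each mouse (y axes) against the summed macrophage markers (upper panels) and the summed B cell markers (lower panels), both in CPM of all counts on a log axis; each point is 1 mouse, coloured by group. The KPC ASC KO mice 377 and 384, with macrophage sums of 2204 and 2323 CPM, stand apart from the other 3, and Tyrobp and Lair1 within KPC are highest in the 4 mice with the highest B cell sums.

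Marker sums of the other leukocytes that use Fc receptors overlapped between KPC and WT mice for neutrophils, natural killer cells, dendritic cells and mast cells. Few of these markers were tested, and no mast cell marker passed the filter. In KPC against WT 0 of 2 neutrophil markers and 0 of 1 natural killer cell marker were called. Of the dendritic cell markers 3 of 3 tested rose, beside 14.8% of all tested genes higher. Neutrophil markers summed to 13.4 to 99.8 CPM in KPC ASC KO, 59.7 to 828 CPM in KPC and 16.8 to 63.7 CPM in WT mice. Natural killer cell markers summed to 1.82 to 20.7 CPM in KPC ASC KO, 11.1 to 227 CPM in KPC and 7.71 to 18.8 CPM in WT mice. Dendritic cell markers summed to 44.8 to 243 CPM in KPC ASC KO, 122 to 1326 CPM in KPC and 50.1 to 129 CPM in WT mice. Mast cell and basophil markers summed to 4.71 to 23.6 CPM in KPC ASC KO, 19.9 to 94.0 CPM in KPC and 2.57 to 57.8 CPM in WT mice. Fcer1a and Ms4a2, the other chains of the mast cell IgE receptor, had 0 counts in all KPC ASC KO and WT mice and 7 and 2 counts over the KPC mice. The part of these cells in the levels above was not tested.

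B cell markers summed to 89.5 to 357 CPM in KPC ASC KO, 110.5 to 2355 CPM in KPC and 74.5 to 164 CPM in WT mice. Within KPC, mice 40, 89, 145 and 154 held 965, 2141, 2232 and 2355 CPM, and mice 43, 48 and 210 held 135, 111 and 185 CPM. Lair1 was at 29.2, 35.1, 26.1 and 22.8 CPM in the first 4 mice and at 8.08, 12.0 and 19.5 CPM in the other 3. Tyrobp was likewise at 242, 253, 207 and 201 CPM in the first 4 and at 137, 170 and 173 CPM in the other 3. The split was drawn after the values had been seen and is given as a description. T cell and dendritic cell markers divided the KPC mice in the same way: T cell sums were 735 to 1396 CPM in the first 4 and 70.7 to 135 CPM in the other 3, and dendritic cell sums were 747 to 1326 CPM in the first 4 and 122 to 233 CPM in the other 3. Fcgr2b, the IgG receptor of B cells, did not follow this split, with 126 CPM in mouse 210, 106 CPM in mouse 40 and 41.4 CPM in mouse 89. With the B cell marker level as a covariate, also added after the data had been seen, Fcer1g, Tyrobp, Fcgr1, Fcgr2b and Fcgr3 stayed called in KPC against WT, at log2 differences of 0.98, 1.19, 3.53, 1.56 and 1.90, and Lair1 was at 2.21. Under this covariate 1624 of the 6920 filtered genes were called in either direction, beside 2070 without it. The part of B cells in these levels was not tested.

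The genes whose levels followed these genes most closely from mouse to mouse were taken from 5067 genes as those with the highest Pearson r of log2 CPM after removing group means, over 18 mice. All points share a library, and the values are a description. For Tyrobp they were Capg, an actin-capping protein (r = 0.91), Csf1r, the receptor of macrophage colony-stimulating factor (0.89), and H2-Eb1, an MHC class II chain (0.89). For Fcer1g they were Lrg1 (0.86), Csf1r (0.86) and Cmtm3 (0.84). For Fcgr2b they were other genes, Fstl1, a secreted glycoprotein (0.91), Ext1, an enzyme of heparan sulfate synthesis (0.88), and Rcn3 of the endoplasmic reticulum (0.83). For Fcgr3 they were Anxa2 (0.87), Apoe (0.84) and Sned1 (0.83), and for Lair1 they were Rgs10 (0.90), Sh3bgrl3 (0.81) and Ifi203 (0.81).

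Genes around the receptors were read from 6 lists of the pathway. Of 24 receptors that pair with Fcer1g or Tyrobp, 4 were tested, and 4 rose in KPC against WT, where 14.8% of all tested genes were called higher, with a list median log2 difference of 1.47. Most genes of this list had too few counts to test, and genes of this level pass the filter largely through the KPC libraries in which they are high, so nothing is read from that count; the same holds for low genes of the lists that follow. Clec4n, the lectin Dectin-2 that signals through Fcer1g, averaged 20.7 ± 4.18 CPM in KPC and 4.69 ± 2.53 CPM in WT mice (log2 difference 2.04, adjusted p 0.00313 by edgeR). Itgb2 rose by 1.52, Itgam by 1.43 and Cd300c2 by 1.37 on the log2 scale. Between KPC ASC KO and KPC, Clec4n fell by 1.45 (adjusted p 0.0274 by edgeR) and Itgb2, the beta-2 integrin chain, fell by 1.51 (adjusted p 0.035 by edgeR), the 2 of 4 that passed, where 2.69% of all tested genes were called lower, with a list median of -1.31. Clec4n averaged 6.37 ± 6.21 CPM in KPC ASC KO mice.

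**Figure D5:**
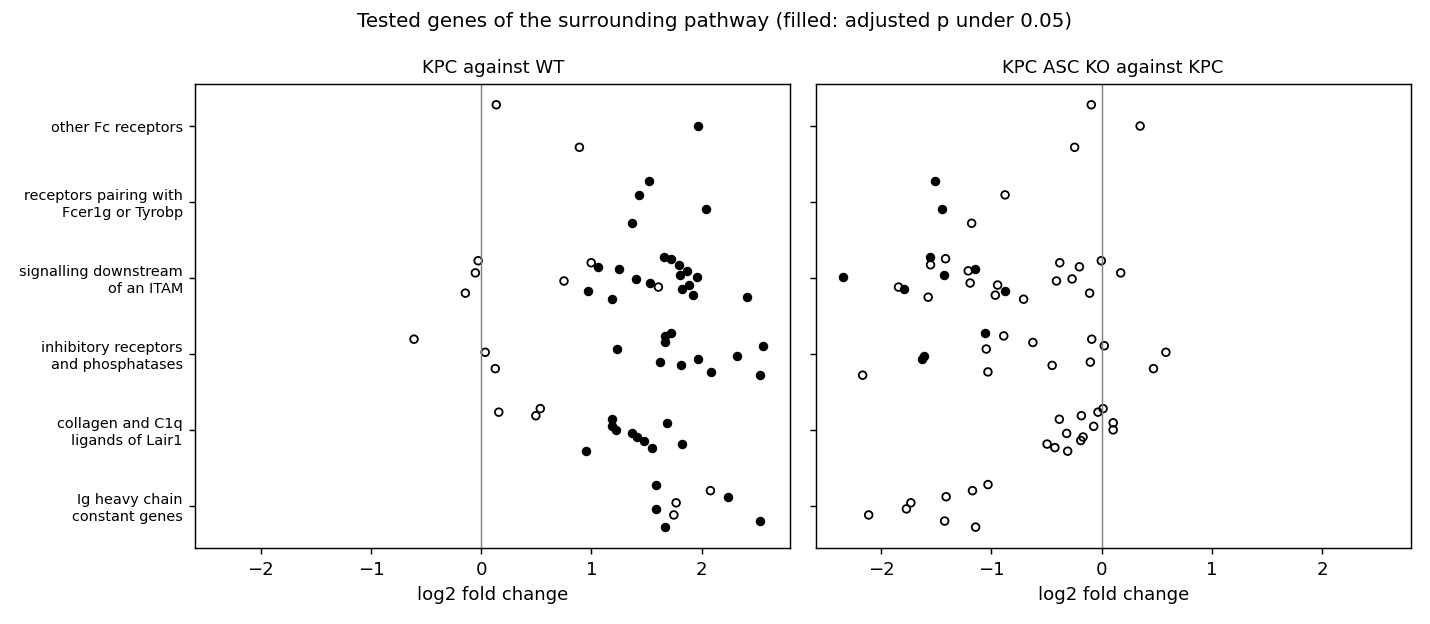
Log2 fold changes of the tested genes of 6 lists around the receptors, one point per gene, in KPC against WT and in KPC ASC KO against KPC; filled points had an adjusted p under 0.05, and the vertical place within a list has no meaning. Filled points lie to the right of 0 in KPC against WT and to the left of 0 in KPC ASC KO against KPC, where the Lair1 ligands lie around 0.

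Downstream of the ITAM, 22 of 29 signalling genes were tested; in KPC against WT 16 rose, 0 fell and 6 missed the threshold, beside 14.8% of all tested genes higher and 15.1% lower, and the list median was 1.57 on the log2 scale. Lyn, the Src-family kinase that phosphorylates ITAMs, averaged 45.0 ± 13.6 CPM in KPC and 12.5 ± 8.36 CPM in WT mice (log2 difference 1.89, adjusted p 0.0013 by edgeR). Pik3cg, Pik3cd and Pik3ap1, of the leukocyte PI3-kinase branch, rose by 1.80, 1.96 and 1.40 on the log2 scale. Set against KPC, KPC ASC KO pancreas was lower in 6 of the 22, beside 2.69% of all tested genes, and 16 missed the threshold; the list median was -1.06. Pik3cd, a catalytic subunit of PI3-kinase, averaged 6.37 ± 4.98 CPM in KPC ASC KO and 38.2 ± 17.7 CPM in KPC mice, a log2 difference of -2.35 (adjusted p 0.00632 by edgeR).

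Of 26 inhibitory receptors and phosphatases 14 were tested; in KPC against WT 11 rose and 3 missed the threshold, beside 14.8% of all tested genes higher, and the list median was 1.69. Inpp5d, the phosphatase recruited by Fcgr2b, averaged 44.5 ± 19.7 CPM in KPC and 8.25 ± 10.2 CPM in WT mice (log2 difference 2.32, adjusted p 0.00266 by edgeR). Ptpn6, the phosphatase recruited by Lair1, rose by 1.67, Sirpa, the receptor of the signal Cd47, by 1.72, and Pirb, an inhibitory receptor for MHC class I, by 1.67 on the log2 scale. Between KPC ASC KO and KPC, 3 of the 14 fell, beside 2.69% of all tested genes lower, among them Sirpa by 1.06 (adjusted p 0.026 by edgeR) and Inpp5d by 1.61 (adjusted p 0.0328 by edgeR), with a list median of -0.76.

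The ligands were read in the same way. Of 15 collagen and complement genes whose products bind Lair1, some of them shown for the human receptor, 13 were tested; in KPC against WT 10 rose and 3 missed the threshold, beside 14.8% of all tested genes higher, and the list median was 1.22. Col4a1 rose by 1.22, Col4a2 by 1.19, C1qc by 1.82 and C1qb by 1.55 on the log2 scale. None of the 13 was called in KPC ASC KO against KPC, with a median of -0.18; Col4a1 averaged 169 ± 42.2 CPM in KPC ASC KO, 159 ± 46.4 CPM in KPC and 68.5 ± 14.5 CPM in WT mice. The sum of the ligand genes was split between the KPC ASC KO mice, at 3798 and 4195 CPM in mice 377 and 384 and at 653, 707 and 676 CPM in mice 318, 335 and 388. It was 2588 to 6179 CPM in KPC and 540 to 809 CPM in WT mice, so the first pair lay in the KPC range and the other 3 in the WT range. C1qc and C1qb, which macrophages make, differed by -0.49 and -0.42 in KPC ASC KO against KPC.

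All 8 immunoglobulin heavy chain constant genes, whose products are the ligands of Fc receptors, were tested. In KPC against WT 5 rose and 3 missed the threshold, beside 14.8% of all tested genes higher, and the list median was 1.76. Igha rose by 1.67, Ighm by 1.59, Ighg2c by 2.24 and Ighd by 2.53 on the log2 scale, with adjusted p-values of 0.0115 to 0.0474 by edgeR. The summed heavy chain genes were 12131 to 17455 CPM in the KPC mice 40, 89, 145 and 154 and 1013 to 2169 CPM in the KPC mice 43, 48 and 210, against 959 to 1330 CPM in WT mice. The spread was wide, and Ighg2c averaged 302 ± 241 CPM in KPC and 64.8 ± 18.8 CPM in WT mice. None of the 8 passed in KPC ASC KO against KPC, with a median of -1.42, and the lowest p-values were those of Ighg1 (-1.77, adjusted p 0.0844 by edgeR) and Ighe (-2.11, adjusted p 0.106 by edgeR).

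Of 14 other Fc receptors and Fc receptor-like genes, 12 were in the table and 3 were tested. Fcrls, an Fc receptor-like gene, rose in KPC against WT (20.6 ± 8.16 CPM in KPC and 4.85 ± 4.12 CPM in WT mice, log2 difference 1.96, adjusted p 0.0199 by edgeR). Fcgrt, the neonatal Fc receptor that recycles IgG, differed by 0.89 (adjusted p 0.0506 by edgeR), and Pigr, which carries IgA across epithelia, by 0.14. None of the 3 passed in KPC ASC KO against KPC, with Fcrls at 0.35 and Fcgrt at -0.24. Against WT, KPC ASC KO pancreas gave no call in any of these lists. The lists were chosen with results of these mice known. Marker sums of macrophages, B cells and other leukocytes also averaged highest in KPC mice, and the part of these cells was not tested.

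One neighbour of the chromosome 1 receptors could be measured. Between Fcgr3 and Fcer1g lies Sdhc, a subunit of succinate dehydrogenase, the only gene there that passed the filter. Its log2 difference was -0.25 in KPC against WT (SE 0.21, adjusted p 0.389 by edgeR) and 0.15 in KPC ASC KO against KPC, beside 1.76 for Fcgr3 and 1.15 for Fcer1g in KPC against WT.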

How the data were processed

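The authors deposited one table of whole-number UMI counts per gene for 18 libraries, not normalised. Per the labels' protocols, poly(A)-primed RNA received a sample index and a UMI before pooled amplification. Per the submitters' processing notes, edgeR 3.36.0 and limma 3.50.0 were run in R 4.1.2, with builds GRCm38 and mm10. The aligner, the UMI rule and the annotation version are not given in the sources consulted. Groups came from the genotype labels.

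The counts were analysed with edgeR 4.0.16 in R 4.3.3: filterByExpr (minimum count 10), TMM scaling and the robust quasi-likelihood F test on all 18 mice in 3 groups, with Benjamini-Hochberg adjustment over 6920 genes and calls at an adjusted p under 0.05. Fcgr1 and Fcgr4 were taken from the same fit without the filter, over 25651 genes. Log2 CPM used a prior count of 2. Alternatives were DESeq2 1.42.0 size factors and test, limma-voom 3.58.1, scaling by total or non-acinar counts, no filter, fits of 2 groups and leaving out each mouse; covariates and the fit without 4 KPC mice were added after the data had been seen.

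The members and lists were chosen with earlier results of these data known. All 7 members are named; of each other list, up to 4 genes with the smallest p in KPC against WT and 2 in KPC ASC KO against KPC are named, except 1 gene that is not reported here. The 5067 genes compared for likeness averaged at least 20 CPM. No 2 libraries of a group agreed within sampling noise; the closest pair had a chi-square of 2.35 per degree of freedom. On simulated counts for KPC against WT, the test recovered 84 of 88 genes changed 4-fold and 40 of 84 changed 2-fold among 5944 genes. The same counts were 84 of 90 and 30 of 85 among 5950 genes when KPC ASC KO was set against KPC, and 84 of 91 and 27 of 87 among 5927 genes when it was set against WT. Genes left unchanged were called 7, 7 and 10 times in that order of comparisons. All simulated mice shared one mean profile apart from the changed genes, so the simulation held no shift in acinar RNA. Recovery was counted over all changed genes, not at the counts of the 7 genes. Intervals on counts cover counting error only.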

Additional observations from a re-analysis of the deposited data

Results flagged for a closer look

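There were 24 groups of values (the 7 genes and the Fcgr2b share in 3 groups of mice). In 3 of them a mouse had a gap to its neighbour that was large for the range of the group by Dixon's criterion. Chance exceeds it in about 1 in 20 groups of normally distributed values. That rate does not apply to values resting on a few molecules, as in these 3 groups. Fcgr1 in WT mouse 1237 was at 5.13 CPM, from 1 molecule, with 0 in the other 5 WT mice, a pattern that is always flagged. Fcgr3 in the same mouse was at 46.1 CPM, against 8.48 to 17.0 CPM in the other WT mice. Lair1 in KPC ASC KO mouse 384 was at 26.0 CPM, against 2.85 to 9.28 CPM in the other KPC ASC KO mice.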

How the results depend on the processing

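No paired analysis was possible because no mouse number occurs in more than 1 group. In KPC against WT the count of called genes, 2070, was 5519 with total count scaling, 4079 with non-acinar scaling, 752 without the KPC mice 40, 89, 145 and 154, 11 with the macrophage covariate and 0 with the acinar covariate, and 1706 to 2325 leaving out 1 mouse. In KPC ASC KO against KPC it was 652, and 4853, 2888, 1 and 5 under the first 4 of these in the same order, 0 with the acinar covariate, 243 with the B cell covariate and 192 in a fit of the 2 groups. Leaving out 1 mouse gave 157 to 1068; KPC mice 48, 89, 145 and 154 and KPC ASC KO mice 318, 335 and 388 each moved it by over 1.5 times. In KPC ASC KO against WT it was 0, and 1 with total count scaling, 2 with non-acinar scaling, 12 without a filter, 8 with DESeq2, 8 in a fit of the 2 groups, 8 with the B cell covariate, 5 with the acinar covariate, and 0 to 1 leaving out 1 mouse.

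The macrophage covariate turned the sign of Fcer1g (-0.019), Fcgr2b (-0.11) and Fcgr4 (-0.16) in KPC against WT, of Fcgr2b (0.12) and Fcgr3 (0.10) in KPC ASC KO against KPC, and of Fcer1g (-0.092) in KPC ASC KO against WT. Fcgr4 in KPC ASC KO against WT ran from -0.47 to 0.27 leaving out 1 mouse, the highest value being that without WT mouse 1202. With the acinar covariate none of the 6 genes other than Lair1 was called in KPC against WT; the log2 differences were 0.88 for Fcer1g, 0.94 for Tyrobp, 1.34 for Fcgr2b, 1.41 for Fcgr3 and 3.79 for Fcgr1. The macrophage and acinar levels differ between the groups, and the cause was not tested. Leaving out 1 mouse moved the mean Fcgr2b share between 47.3% and 54.4% in KPC ASC KO, 47.3% and 51.7% in KPC and 47.4% and 54.1% in WT mice. Some alternatives gave no value: Lair1 in fits of 2 groups with WT and without the 4 KPC mice, Fcgr2b and Fcgr3 in the fit of KPC ASC KO and WT alone, and DESeq2's adjusted p for Fcgr1 and Fcgr4 in comparisons with KPC ASC KO. Depth limits Fcgr1, Fcgr4 and Lair1 most, with 1, 7 and 4 counts over the WT mice.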

Other observations

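Some Fc receptor and adaptor partner genes lay under the count filter and are given as molecules, followed by normalised means. They were chosen after their values had been seen. The groups differ in number of mice and in depth, so the molecule counts are not comparable between groups. Fcer2a, the low-affinity IgE receptor of B cells, had 29 counts over the KPC ASC KO mice, 516 over the KPC mice and 14 over the WT mice. Fcmr, the IgM receptor, had 32 counts in KPC ASC KO, 497 in KPC and 15 in WT mice. Fcrla and Fcrl1, both of the B cell lineage, had 18 and 16 counts in KPC ASC KO, 348 and 245 in KPC, and 16 and 6 in WT mice. Trem2, a lipid receptor that signals through Tyrobp, had 27 counts in KPC ASC KO, 129 in KPC and 11 in WT mice. On the TMM-normalised scale Trem2 averaged 12.2 CPM in KPC ASC KO, 12.1 CPM in KPC and 7.82 CPM in WT mice. In the same order of groups Fcer2a averaged 14.9, 48.0 and 9.75 CPM, and Fcmr 16.6, 45.8 and 10.9 CPM. Fcrla averaged 8.91, 31.4 and 11.1 CPM, and Fcrl1 9.67, 23.1 and 4.28 CPM.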
